A study of Homo sapiens with 6 samples.

Results

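The proteasome genes were followed in NB4 cells, a human acute promyelocytic leukemia line that carries the PML-RARA fusion, after treatment with Tan I or with its solvent. Members were all genes whose symbol begins with PSMA, PSMB, PSMC, PSMD, PSME, PSMF or PSMG followed by a number, together with POMP and NFE2L1. There were 49 of them among 18625 genes listed. All 49 passed the filter on low values, a mean normalized count of at least 10 over the 6 libraries, as did 16887 genes in all. Both groups were NB4 cells kept in culture. The DMSO group (3 libraries) received DMSO only, and the Tan I group (3 libraries) received Tan I at 10 μM for 3 days, so the solvent is common to both. The groups come from a single cell line, and the sources used here do not say whether the libraries of a group came from separate cultures. The p-values therefore measure only the spread between these libraries, which may be technical.

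The proteasome degrades proteins that carry ubiquitin chains. Its 20S core is a barrel of alpha rings, which gate the entrance, around beta rings, which hold the proteolytic sites. The 19S cap recognises ubiquitin, unfolds the substrate with a ring of ATPases and feeds it into the core. In immune cells and under interferon, PSMB8, PSMB9 and PSMB10 can replace the constitutive catalytic subunits PSMB5, PSMB6 and PSMB7 to form the immunoproteasome, and PSME1 and PSME2 form the PA28 cap that opens the core. The chaperones PSMG1 to PSMG4 and POMP assemble the core, and NFE2L1 is the transcription factor that raises proteasome genes when proteasome activity is short. Acute promyelocytic leukemia is a disease in which degradation of the fusion protein by the proteasome is part of the response to standard drugs.

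Transcripts of nearly all proteasome genes had slightly higher mean levels in the Tan I group, and for 42 of 49 the difference was no larger than the range of the DMSO libraries. It exceeded that range for 7 members. The log2 fold change was above 0 for 46 of 49 members, against 49.7% of all genes tested. The median over members was 0.23, with a range from -0.09 to 0.44, and the median over all genes was -0.00. The standard errors of single members lay between 0.0998 and 0.324. Only PSMC4, an ATPase of the 19S cap, passed the call rule of an unadjusted p of at most 0.05 with a log2 fold change of at least 0.25 in size. This rule called 2.42% of all genes, 1.32% as higher and 1.1% as lower in Tan I. No gene passed after Benjamini-Hochberg adjustment of the limma p-values (0% of genes, smallest adjusted p 0.118), where 408 genes passed the unadjusted rule. The members all had an adjusted p of 0.999, edgeR also gave no adjusted call, and DESeq2 gave 16 over all genes, with no member among them.

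Tan I 3 was the highest of the 6 libraries for 38 of 49 members, against 29.4% of all genes. DMSO 2 was the highest DMSO library for 40 of 49 members, against 45.9% of all genes. Set against the DMSO mean, the median member stood at log2 values of -0.20, 0.24 and -0.04 in DMSO 1, 2 and 3. In Tan I 1, 2 and 3 it stood at -0.03, 0.21 and 0.55. The DMSO 2 library thus lay above Tan I 1 and beside Tan I 2, and the groups overlapped. Tan I 1 was above the DMSO mean for 19 members, Tan I 2 for 42 and Tan I 3 for 44. Without Tan I 3, the median log2 fold change of the members was 0.08 and 38 of 49 were above 0. Without DMSO 2 the median was 0.34, without Tan I 1 it was 0.36, without DMSO 1 it was 0.14, and without both DMSO 2 and Tan I 3, an alternative chosen after the data were seen, it was 0.18.

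The same libraries stood apart over all genes. The first principal component of all genes took 70.8% of the variance and placed DMSO 1 to 3 at -48.0, 41.1 and -26.7, and Tan I 1 to 3 at -46.8, 8.65 and 71.6. Reads on listed genes numbered 25356503 to 31679138 in DMSO and 21502760 to 24298627 in Tan I. DMSO 2 and Tan I 3 also had the highest share of mitochondrial reads (6.40% and 5.41%, against 3.99% to 4.67% in the other 4), the highest share of reads on the 10 most abundant genes (10.2% and 9.76%, against 7.38% to 8.25%) and the fewest genes with reads (18579 and 18447, against 18609 to 18625). DMSO 1 and DMSO 3 had reads on all 18625 listed genes, so the list caps the count of genes with reads. Tan I 3 also had the fewest reads, 21502760. The part of these measures in the proteasome values was not tested. That of the first component was not tested beyond a fit that holds it as a covariate. In that fit the median of the members was 0.12, 42 of 49 were above 0 and 6 were called, all higher, against 4.25% of all genes called higher. These were PSMC4, PSMA1, PSMA2, PSMA6, PSMG4 and POMP, of which PSMC4 and POMP also passed after limma's Benjamini-Hochberg adjustment, against 1.15% of all genes. The component was computed from the same values that were tested. With it 8.86% of all genes were called in either direction, against 2.42% without it. The p-values of the 2 fits are therefore not comparable.

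**Figure D1:**
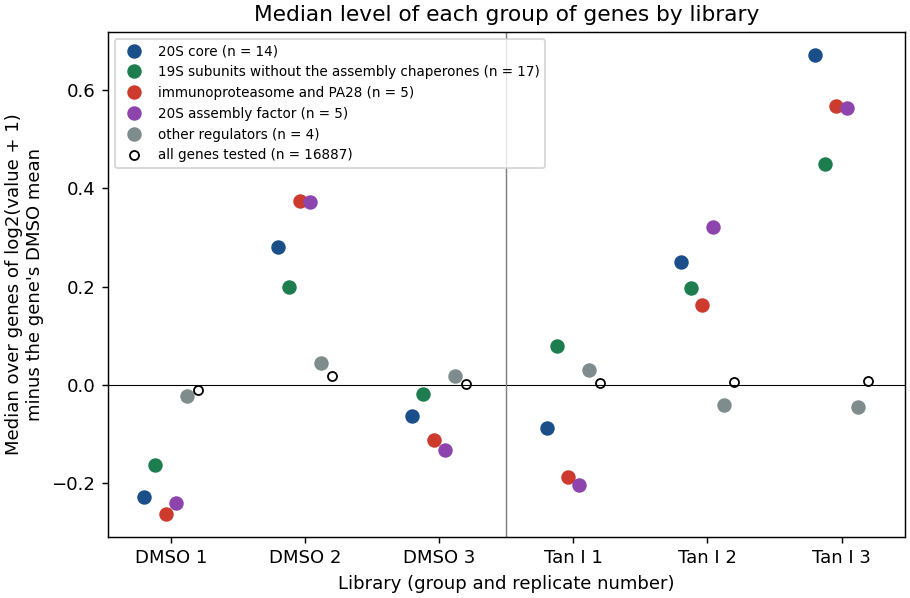
Median over genes of log2(normalized count + 1) minus the gene's DMSO mean (vertical axis) in each of the 6 libraries (horizontal axis), with a point for each proteasome group and an open circle for all genes tested. For the core, Tan I 3 is highest at 0.67 and DMSO 2 stands at 0.28, above Tan I 1 and Tan I 2.

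Taken as a share of all reads on listed genes, the 49 members held 0.403%, 0.472% and 0.422% in DMSO 1 to 3. They held 0.440%, 0.481% and 0.532% in Tan I 1 to 3, a mean of 0.484% ± 0.0458 (SD, n = 3) against 0.432% ± 0.0357 (SD, n = 3). The shares overlapped because DMSO 2 exceeded Tan I 1. For the 19S cap alone the share was 0.167%, 0.179% and 0.172% in DMSO and 0.186%, 0.190% and 0.200% in Tan I, with no overlap. The core overlapped, at 0.141%, 0.181% and 0.152% in DMSO and 0.155%, 0.182% and 0.214% in Tan I. On normalized counts the median gene of the cap did overlap between the groups. Set against the DMSO mean, it stood at 0.18 in log2 in DMSO 2. In Tan I 1 and Tan I 2 it stood at 0.04 and 0.17. In these bulk libraries a change of RNA per cell cannot be told apart from a change in the make-up of the cells.

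Known promoter elements of proteasome genes are given first as sequence. The antioxidant response element is the site bound by NFE2L1 and its relative NFE2L2 with small MAF proteins, and the interferon regulatory element is bound by interferon regulatory factors. Both cores were searched on both strands in RefSeq windows (GRCh38.p14) from 250 bases before to 50 bases after each annotated start, which were found for 45 of 51 proteasome names. The letters TGACNNNGC, the antioxidant response element core, were present in 15 of 45 proteasome genes (33.3%), against 16.1% of 27305 genes. The interferon regulatory element core, GAAA followed by any 2 bases and GAAA again, was present in 7 of 45 (15.6%), against 4.38%. The letters CCAAT were present in 22 of 45 (48.9%), against 39.7%. A match is a description of the letters and does not show that a factor binds there.

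Windows of 30 bases around the antioxidant response element core, in capitals, are shown for subunits of the cap and the core, including the called gene PSMC4 and 2 of the 6 genes whose groups did not overlap, PSMD1 and PSMD3. They read 5′ to 3′ along the gene's strand, and a match on the other strand appears as its reverse complement. The match shown lay after an annotated start in PSMC4 (position 28) and PSMD1 (position 40), and before it in the others. PSMD3 held a further match at position 34. In PSMA4 and PSMC5 the match was not in the window of every annotated start. The core was also present in PSMB9, PSMD5, PSMD9, PSME1, PSME2, PSME4, PSMG1 and PSMG2, which are not shown. The windows shown lie at chr19:39971182-39971211 for PSMC4, chr17:63827654-63827683 for PSMC5, chr2:231056887-231056916 for PSMD1, chr17:39980760-39980789 for PSMD3, chr15:78540650-78540679 for PSMA4 and chr17:38752627-38752656 for PSMB3, all on the + strand, and chr17:67366723-67366752 for PSMD12 on the - strand.
PSMC4: acagaggccgGCTTGGTCActatggaggag
PSMC5: gaccggatctGCTGTGTCAgcgccgccctc
PSMD1: ggcggcctgaggaggcgacTGACTGAGCag
PSMD3: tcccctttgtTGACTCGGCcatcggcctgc
PSMD12: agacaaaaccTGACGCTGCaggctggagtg
PSMA4: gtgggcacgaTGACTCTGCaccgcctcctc
PSMB3: gcctccgtttTGACTTTGCaaccaaactac

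The interferon regulatory element core is shown in capitals for both inducible catalytic subunits that held it and for both PA28 genes. The same letters, GAAAGCGAAA or their reverse complement, stood within 30 bases of an annotated start in all 4. The core was not limited to such genes. It was also present in PSMA4, PSMB4 and PSMG4, which are not shown, and absent from the window of the inducible PSMB9. In PSMG4 the letters were the same GAAAGCGAAA, at position -33 from an annotated start. The windows lie at chr6:32844032-32844061 for PSMB8, chr16:67936852-67936881 for PSMB10 and chr14:24146619-24146648 for PSME2, on the - strand, and at chr14:24136189-24136218 for PSME1 on the + strand.
PSMB8: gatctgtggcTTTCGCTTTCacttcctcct
PSMB10: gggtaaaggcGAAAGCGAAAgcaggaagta
PSME1: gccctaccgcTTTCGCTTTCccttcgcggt
PSME2: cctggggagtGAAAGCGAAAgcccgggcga

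Medians were alike with and without either core. Members with the antioxidant response element core stood at 0.22 in the median log2 fold change, and 14 of 15 were above 0. Measured members without it stood at 0.20, and 26 of 28 were above 0. With the interferon regulatory element core the median was 0.21 with 7 of 7 above 0, and without it 0.23 with 33 of 36 above 0.

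The 14 constitutive subunits of the 20S core all had a log2 fold change above 0, with a median of 0.27, but none was called and none had groups that did not overlap. The core median was 0.08 without Tan I 3, 0.15 without DMSO 1, 0.42 without DMSO 2, 0.45 without Tan I 1 and 0.13 with the first principal component as covariate. The alpha subunits (7, median 0.27) and the beta subunits (7, median 0.25) stood at similar values. The largest of the core was PSMA1, an alpha subunit, with 600, 826 and 647 normalized counts in DMSO and 730, 958 and 1103 in Tan I. DMSO 2 was above Tan I 1, and the log2 fold change was 0.42 (SE 0.19, limma p = 0.0637, exact permutation p = 0.2). PSMA1 passed the call rule in 7 of 18 alternatives, among them those without DMSO 2 and without Tan I 1.

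The smallest core change was that of PSMB4, a structural beta subunit, at 0.23 (95% interval -0.24 to 0.70). It had 5017, 6864 and 5823 normalized counts in DMSO and 5421, 6894 and 8650 in Tan I. Per kilobase of the canonical transcript PSMB4 was also the highest of the members, at 7020 normalized counts per kb over the 6 libraries, followed by PSMB1 at 5005. PSMA6 and PSMA2, alpha subunits, differed from the rest of the core in library order: DMSO 2 was the lowest DMSO library, as it was for 7 of 49 members. PSMA2 had 260, 158 and 291 normalized counts in DMSO and 266, 328 and 239 in Tan I, and PSMA6 had 457, 353 and 449 in DMSO and 501, 585 and 405 in Tan I.

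None of the constitutive catalytic subunits passed the call rule. PSMB5, with the chymotrypsin-like activity, had 1882, 2749 and 1971 normalized counts in DMSO and 1984, 2425 and 3507 in Tan I, a log2 fold change of 0.24 ± 0.24 (SE). PSMB6, with the caspase-like activity, had 1401, 2149 and 1614 in DMSO and 1528, 1974 and 2891 in Tan I (0.28 ± 0.26). PSMB7, with the trypsin-like activity, had 3012, 4294 and 3581 in DMSO and 3359, 3982 and 5584 in Tan I (0.23 ± 0.22). In each, Tan I 3 was highest, DMSO 2 was above Tan I 1 and Tan I 2, and the groups overlapped.

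**Figure D2:**
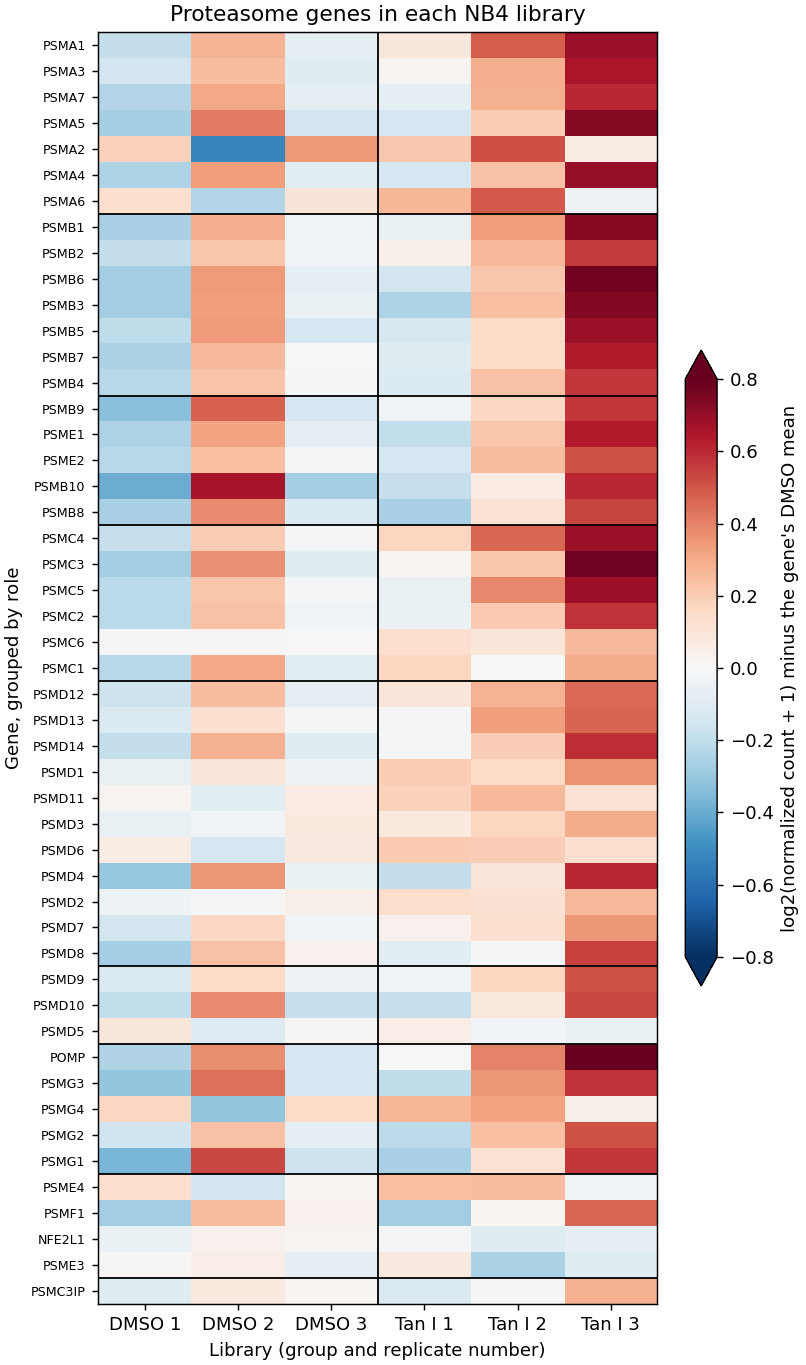
Heat map of the 49 members (vertical axis, grouped by role) in the 3 DMSO and 3 Tan I libraries (horizontal axis), where colour is log2(normalized count + 1) minus the gene's DMSO mean, red above and blue below it. Tan I 3 is the reddest column, DMSO 2 is red for most genes, and PSMA2, PSMA6 and PSMG4 run the other way in DMSO 2.

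In the 19S cap, its assembly chaperones included, 19 of 20 genes were above 0 in log2 fold change, and the median was 0.18. It was 0.12 without Tan I 3, 0.30 without DMSO 2 and 0.29 without Tan I 1. PSMC4, an ATPase of the base, was the only one called, with 1001, 1304 and 1120 normalized counts in DMSO and 1277, 1560 and 1830 in Tan I. Its log2 fold change was 0.44 (SE 0.17, 95% interval 0.05 to 0.83, limma p = 0.0335, exact permutation p = 0.2, adjusted p = 0.999 after Benjamini-Hochberg). DMSO 2 was above Tan I 1, so the groups overlapped. The call was lost when DMSO 1, DMSO 3, Tan I 2 or Tan I 3 was left out, and in the limma fit without the trend. The ATPases as a group (6) had a median of 0.29, all above 0, and the smallest was PSMC1 at 0.15 (SE 0.16), with 894, 1288 and 982 in DMSO and 1174, 1039 and 1278 in Tan I.

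In 6 members the lowest Tan I library exceeded the highest DMSO library, which is 12.2% of the members against 3.92% of all genes tested. All 6 belonged to the 19S cap, where they were 30% of the genes, and 5 were non-ATPase subunits. No member had all Tan I libraries below all DMSO libraries, against 3.97% of all genes. For each of the 6 the exact permutation test gave 0.1 (two-sided), the lowest p within reach of 3 against 3 libraries, and none reached the fold of 0.25 in log2.

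PSMD1, a scaffold subunit of the base, had 1908, 2125 and 1926 normalized counts in DMSO and 2280, 2220 and 2540 in Tan I, a log2 fold change of 0.24 (SE 0.11, limma p = 0.0662, exact permutation p = 0.1). PSMD2, its partner scaffold, had 3499, 3575 and 3723 in DMSO and 3959, 3909 and 4301 in Tan I (0.17, SE 0.10). The DMSO libraries spanned 0.16 in log2 for PSMD1 and 0.09 for PSMD2, against a median span of 0.46 for both the members and all genes. A narrow span was not particular to these large base subunits. It was 0.13 in PSMD3, 0.20 in PSMD6, 0.16 in PSMD11 and 0.02 in PSMC6, whose groups did not overlap either. NFE2L1, whose groups overlapped, had a span of 0.09. Choosing genes without overlap at a small change also limits how wide the DMSO span can be.

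PSMD3, a lid subunit, had 3308, 3393 and 3629 normalized counts in DMSO and 3637, 3872 and 4222 in Tan I (0.18, SE 0.11). PSMD6, another lid subunit, had 2271, 1990 and 2292 in DMSO and 2520, 2503 and 2378 in Tan I (0.18, SE 0.11). PSMD11, a lid subunit too, had 2830, 2612 and 2920 in DMSO and 3165, 3327 and 3022 in Tan I (0.19, SE 0.11). In PSMD6 and PSMD11 the order within groups was turned, with DMSO 2 lowest in DMSO and Tan I 3 lowest in Tan I. PSMC6, an ATPase, had 2671, 2714 and 2707 in DMSO and 2962, 2889 and 3234 in Tan I, a log2 fold change of 0.17 (SE 0.10) over a DMSO span of 0.02.

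The largest change of the non-ATPase subunits was that of PSMD12, a lid subunit, at 0.28 (SE 0.15). It had 1076, 1427 and 1139 normalized counts in DMSO and 1288, 1463 and 1647 in Tan I, where DMSO 2 was above Tan I 1. The smallest was PSMD8 at 0.15 (SE 0.21), with 1482, 2108 and 1838 in DMSO and 1682, 1774 and 2618 in Tan I. Among the 3 chaperones that assemble the base, PSMD9 stood at 0.22 and PSMD5 at -0.01 (SE 0.11). PSMD5 had 1854, 1624 and 1752 in DMSO and 1803, 1712 and 1676 in Tan I, and PSMD9 had 320, 387 and 338 in DMSO and 339, 391 and 495 in Tan I. Both overlapped between the groups.

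**Figure D3:**
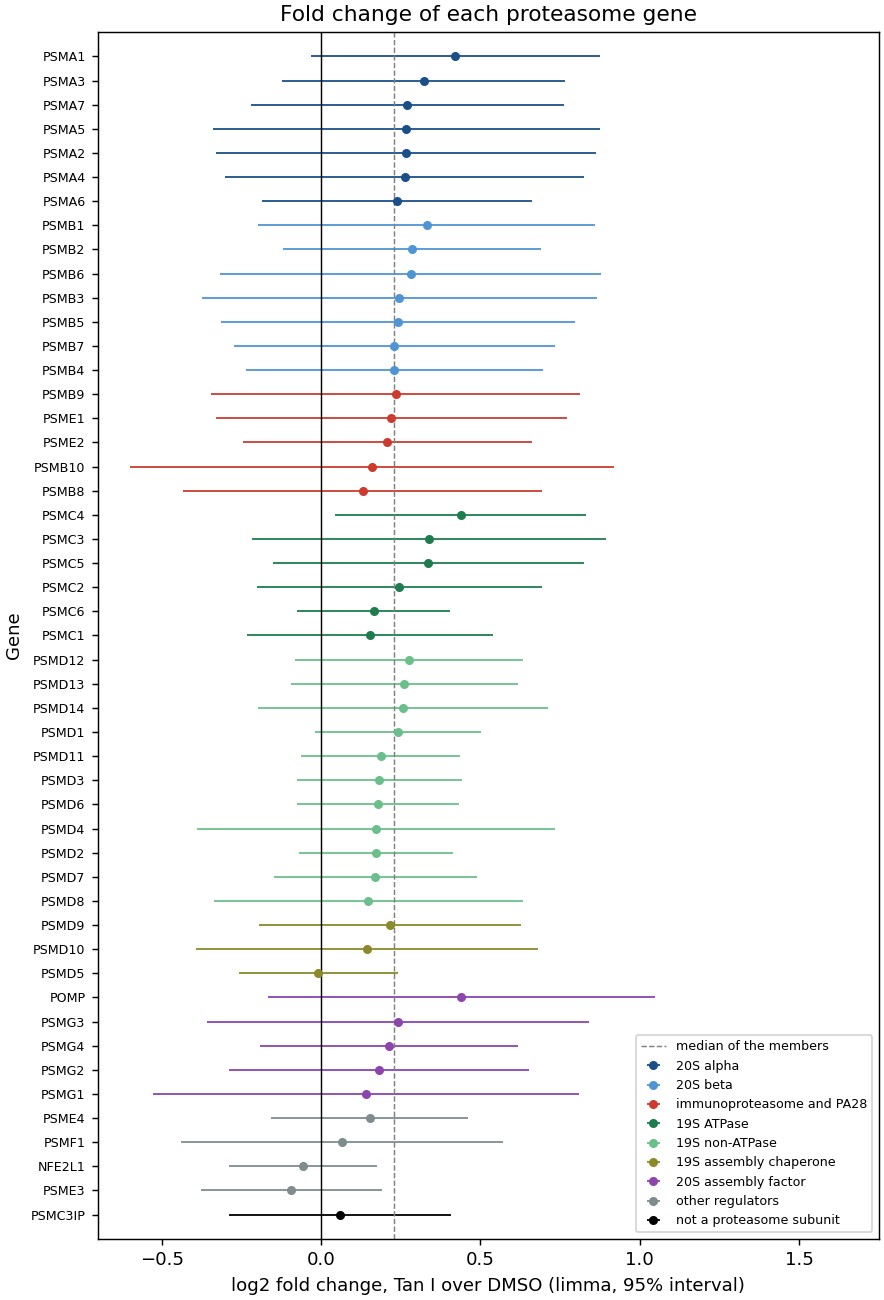
Log2 fold change of each of the 49 members, Tan I minus DMSO, with its 95% interval from limma and colours by group of subunits. Points lie between -0.09 and 0.44, and the interval of PSMC4 alone stays above 0.

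The inducible subunits and PA28 stood above 0 in log2 fold change in 5 of 5 genes, with a median of 0.21 and no call. The median was 0.013 without Tan I 3, 0.067 without DMSO 1, 0.38 without DMSO 2, 0.36 without Tan I 1 and 0.070 with the first principal component as covariate. PSMB8, the inducible partner of PSMB5, had 1288, 2003 and 1428 normalized counts in DMSO and 1289, 1670 and 2243 in Tan I (0.13, SE 0.24). PSMB9, which replaces PSMB6, had 305, 535 and 350 in DMSO and 378, 431 and 571 in Tan I (0.23, SE 0.25). PSMB10, which replaces PSMB7, had 186, 388 and 204 in DMSO and 215, 256 and 372 in Tan I (0.16, SE 0.32). For PSMB10 the highest library was DMSO 2, and in all 3 genes DMSO 2 was above Tan I 1 and Tan I 2.

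PSME1, the alpha subunit of PA28, had 2973, 4392 and 3343 normalized counts in DMSO and 3071, 4109 and 5469 in Tan I (0.22, SE 0.24). PSME2, the beta subunit, had 2834, 3909 and 3274 in DMSO and 3016, 3941 and 4705 in Tan I (0.21, SE 0.19). The PA28 genes were among the highest members per kilobase, at 4034 normalized counts per kb for PSME1 and 4556 for PSME2. PSMB8 stood at 1471, PSMB9 at 421 and PSMB10 at 277 normalized counts per kb.

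The balance between inducible and constitutive catalytic subunits was compared as a ratio within each library, in 3 pairs with exact two-sided permutation tests. The ratio of PSMB9 to PSMB6 was 0.218, 0.249 and 0.217 in DMSO and 0.248, 0.219 and 0.198 in Tan I. The difference in log2 ratio was -0.05, with a 95% interval from -0.36 to 0.27 (exact permutation p = 0.8, adjusted p = 1). The ratio of PSMB10 to PSMB7 was 0.0619, 0.0906 and 0.0572 in DMSO and 0.0643, 0.0646 and 0.0668 in Tan I. This difference was -0.07 (interval -0.64 to 0.50, exact permutation p = 1), and its DMSO spread came from DMSO 2. The ratio of PSMB8 to PSMB5 was 0.685, 0.729 and 0.725 in DMSO and 0.650, 0.689 and 0.640 in Tan I, a difference of -0.11 (interval -0.23 to 0.01, exact permutation p = 0.2, adjusted p = 0.6). Tan I 2 lay just above DMSO 1, so these groups overlapped too. Without DMSO 2 the first 2 differences changed sign, to 0.02 and 0.13.

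**Figure D4:**
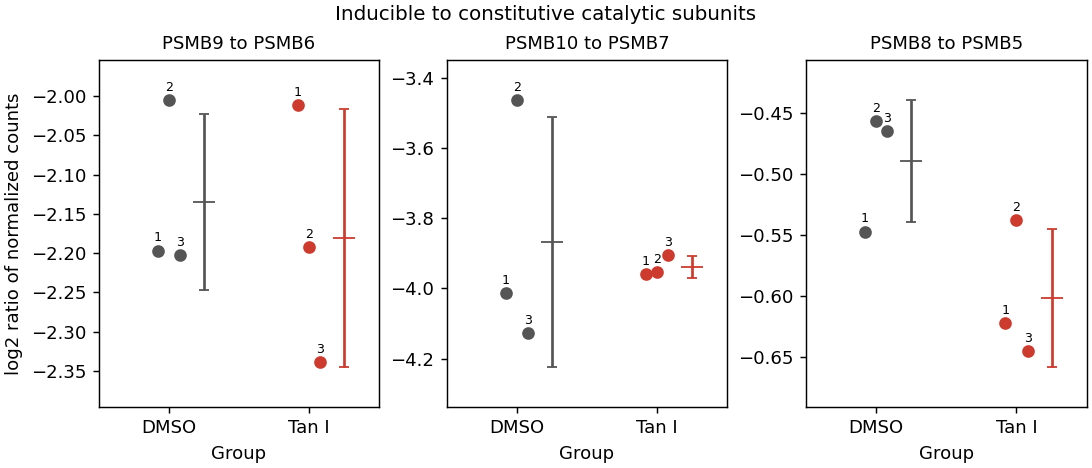
Log2 ratio of each inducible catalytic subunit to the constitutive subunit it replaces (vertical axes, scaled separately), with a point for each library, numbered by replicate, and the mean ± SD of each group. PSMB8 to PSMB5 lies between -0.64 and -0.46, and the groups overlap in all 3 pairs.

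The core assembly factors, PSMG1 to PSMG4 and POMP, had log2 fold changes above 0 in 5 of 5 genes, with a median of 0.21 and no call. Leaving out Tan I 3 gave 0.074, DMSO 1 0.10, DMSO 2 0.41 and Tan I 1 0.38, and the covariate fit gave 0.080. POMP, which helps partly built cores join, had the largest change of all members, 0.44, with a standard error of 0.26 and a limma p of 0.132. It had 2002, 3063 and 2157 normalized counts in DMSO and 2361, 3114 and 4496 in Tan I, where DMSO 2 was above Tan I 1. POMP was called without DMSO 2 and without Tan I 1. In the latter fit 8 members were called, all higher (PSMA1, PSMA3, PSMB1, PSMB2, PSMC4, PSMC5, PSMD13 and POMP), against 4.32% of all genes called higher. The smallest was PSMG1, which pairs with PSMG2 to build the alpha ring, at 0.14 (SE 0.29), with 482, 902 and 555 in DMSO and 520, 676 and 920 in Tan I.

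The regulators outside these complexes had a median of 0.00, and 2 of 4 were above 0. NFE2L1 had 3270, 3477 and 3447 normalized counts in DMSO and 3369, 3179 and 3253 in Tan I, a log2 fold change of -0.06 (95% interval -0.29 to 0.18). PSME3, which forms the nuclear PA28 gamma cap, had 1851, 1908 and 1757 in DMSO and 1931, 1540 and 1716 in Tan I (-0.09, SE 0.12), the lowest change of all members. PSME4, the PA200 cap, stood highest of the 4 at 0.15 (SE 0.13), with 2038, 1669 and 1872 in DMSO and 2188, 2196 and 1818 in Tan I. PSMC3IP, whose symbol fits the naming rule but which acts in meiotic recombination and is not a proteasome subunit, stood at 0.06, with 365, 412 and 394 in DMSO and 360, 392 and 475 in Tan I.

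Genes that work beside the proteasome were read from 4 lists, whose medians were not tested against that of the members. Of 13 accessory factors 11 were above 0 and none was called (median 0.10). The highest was ADRM1, a ubiquitin receptor of the cap, at 0.36 (SE 0.20), and the lowest was UBE3C, a ubiquitin ligase at the proteasome, at -0.13 (SE 0.17). USP14, which trims ubiquitin from substrates, was the only one whose groups did not overlap (7.69% of the list, against 3.92% of all genes), with 1717, 1816 and 1666 normalized counts in DMSO and 1866, 1940 and 1958 in Tan I (0.15, SE 0.10). Of 12 genes for ubiquitin, its activation and its shuttles 11 were above 0 and none was called (median 0.07). The highest was UBQLN1, a shuttle factor, at 0.14, and the lowest was UBQLN4, its relative, at -0.10.

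Of 13 genes that process NFE2L1 or pair with it, 8 were above 0 and 2 were called, both higher (15.4% of the list, against 1.32% of all genes). MAFF, a small MAF protein that pairs with NFE2L1 on DNA, rose from 355, 323 and 383 normalized counts in DMSO to 425, 492 and 517 in Tan I (0.43, SE 0.14, limma p = 0.0164, exact permutation p = 0.1). SYVN1, a ubiquitin ligase of the endoplasmic reticulum that acts on NFE2L1, rose from 1731, 1406 and 1757 to 1988, 2098 and 1948 (0.31, SE 0.12). Neither passed after adjustment, and both had groups that did not overlap (15.4% of the list, against 3.92% of all genes). DDI2, the protease that activates NFE2L1, was lowest, at -0.21 (SE 0.23). Of 9 genes of interferon signalling and antigen presentation 7 were above 0 and none was called (median 0.06). TAPBP, which loads peptides onto MHC class I, was highest at 0.22 and was the only one whose groups did not overlap (11.1% of the list, against 3.92%), and TAP2, a subunit of the peptide transporter, was lowest at -0.18.

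Exons of neighbouring annotations on the same strand covered more than 10% of the canonical transcript in 5 members. In GENCODE release 44 other genes on the same strand covered 100% of the canonical PSMA2 transcript, 81.4% of PSMA6, 67.0% of PSMA1, 56.1% of PSMB10 and 28.8% of PSMD9, and 0.126% of PSME2. Reads in such stretches can be dropped or split when reads are counted by gene, and the annotation release behind the deposited values is not given in the sources used here. The 3 core subunits overlapped by at least 50% had 179 to 678 normalized counts per kb. The other 11 core subunits had 850 to 7020 per kb, with no overlap between these ranges. Over all genes tested the median was 69.2 per kb for 783 genes overlapped to that extent and 125 for 16042 others. The part of the overlap in these levels was not tested, and the levels and changes of these 5 genes are uncertain. PSMC1, PSMD7 and PSMC3IP are overlapped on the opposite strand (83.2%, 51.6% and 57.2%), which matters if the counting did not use strand.

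**Figure D5:**
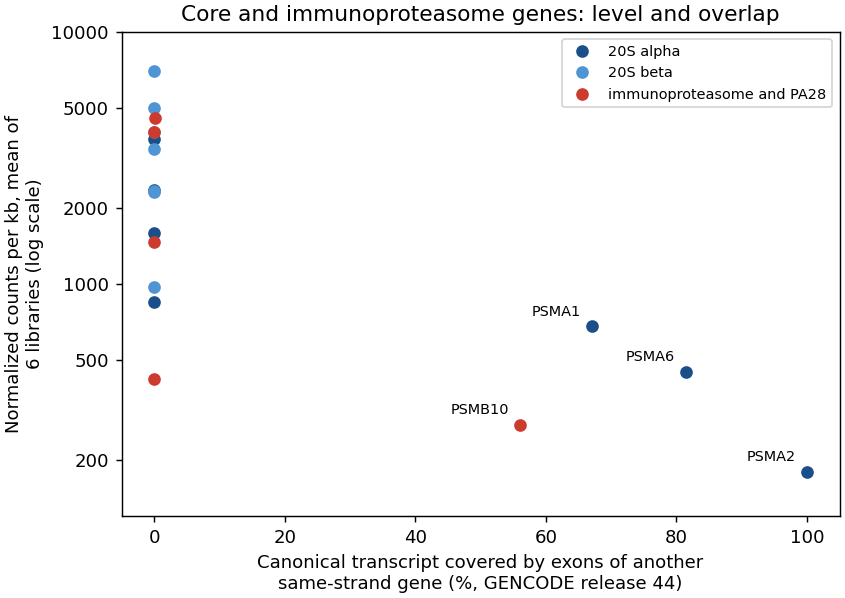
Level of core and immunoproteasome genes, as normalized counts per kb of canonical transcript (log scale, mean of 6 libraries), against the percent of that transcript covered by other genes on the same strand. PSMA1, PSMA6 and PSMA2 lie below the other core subunits.

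The cells carried the markers of promyelocytes: 6 of 7 such genes were measured, led by MPO at 60389 to 64107 normalized counts in DMSO and 33279 to 39450 in Tan I. MPO and CTSG were called lower, as were 1.1% of all genes. The summed level of the 6 genes, most of it MPO, was 71792 to 78103 in DMSO and 42453 to 51108 in Tan I. PRTN3, AZU1, RNASE2 and CD33 were not called, and each overlapped between the groups. Their log2 fold changes were -0.32, -0.25, -0.19 and 0.07. Of other cell types, 1 of 3 megakaryocyte markers was measured, ITGA2B (1060 to 1127 against 1332 to 1418). It was called higher, as were 1.32% of all genes. Summed levels overlapped between the groups for T cell markers (2 of 3 measured, 257 to 415 against 282 to 527), B cell markers (2 of 3, 170 to 179 against 159 to 172), the erythroid marker ALAS2 (1 of 3, 15.4 to 51.3 against 10.7 to 28.3) and endothelial or fibroblast markers (2 of 4, 310 to 339 against 237 to 320). None of the measured markers was at 0, and their part in the proteasome values was not tested.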

How the data were processed

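RNA from 6 NB4 libraries was sequenced as paired-end reads. According to the study's methods, reads were aligned to GRCh38 with STAR, reads mapping to several places were removed, and genes were counted with featureCounts. Versions, annotation release and strand setting are not given in the sources used here. The authors deposited normalized counts, that is, signal values equal to read counts divided by a DESeq2 size factor per library. Whole reads were recovered for 100% of values within 0.01 read, with size factors from 0.750 to 1.28. The authors' own columns of fold changes and p-values were not used.

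Genes with a mean of at least 10 (16887 of 18625) were tested with limma 3.58.1 in R 4.3.3 (eBayes with trend, all 6 libraries, treatment only) on log2(normalized count + 1), a scale that understates the change of low genes, with Benjamini-Hochberg adjustment over all genes. Calls needed an unadjusted p of at most 0.05 and a log2 fold change of at least 0.25 in size. Single members and catalytic ratios were tested with exact two-sided permutation tests (smallest possible p 0.1). Scripts were tested on simulated data. Alternatives were pseudocounts of 0.1 and 10, no filter, a mean of at least 50, the same total per library, quantile normalization, no trend, a replicate block, the first principal component as covariate, each library left out, fold thresholds of 0 and 0.5, and edgeR 4.0.16 and DESeq2 1.42.0 on the recovered reads.

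Values in every library were given for members called or with groups that do not overlap, the largest and smallest change of each group of subunits, the catalytic, inducible and PA28 subunits, POMP and NFE2L1. Genes of 4 lists (accessory factors, NFE2L1 processing and partners, ubiquitin and shuttles, immunoproteasome context) were named where called or as the largest change either way. PSMA2, PSMA6, USP14 and TAPBP, and MPO, CTSG and ITGA2B, were named after their values were seen. The members and lists were chosen with earlier results of these data known. The expression of DDI1, PSMA8 and PSMB11 was not analysed here. PSMA8 and PSMB11 were among the names whose promoter windows were searched, and PSMB11 held CCAAT.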

Additional observations from a re-analysis of the deposited data

How the results depend on the processing

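The members called, 1 of 49 as reported against 2.42% of all genes, are given here with the share of all genes called. They numbered 2 with the same total per library (2.59%), 0 without the trend (3.29%), 2 with a replicate block (2.06%) and 2 with DESeq2 (2.49%). The first principal component as covariate gave 6 (8.86%). Leaving out DMSO 2 and Tan I 3, chosen after seeing the data, gave 5 (2.82%). With each library left out in turn there were 5 without DMSO 2 (2.76%), 8 without Tan I 1 (8.86%) and 0 without DMSO 1, DMSO 3, Tan I 2 or Tan I 3 (0.947% to 1.60%). At a fold threshold of 0.5 there were 0, and the share of all genes at that threshold is not given here. No member could pass it, as the largest log2 fold change of a member was 0.44. The correlations of deviations for replicates 1, 2 and 3 were 0.751, -0.0881 and -0.451, so the replicate numbers did not act as pairs throughout. These mixed values cannot show whether the libraries were paired by design. Members with all Tan I above all DMSO libraries, 6 as reported (3.92% of all genes), numbered 3 with quantile normalization (3.78%) and 24 without DMSO 2 and Tan I 3 (15.9%). With each library left out they numbered 21 without DMSO 2 (11.7%), 19 without Tan I 1 (13.7%) and 9 without Tan I 3 (7.54%). They numbered 6 without DMSO 1 (5.60%), DMSO 3 (6.24%) or Tan I 2 (5.31%). Fewer libraries separate more often, so these counts are to be read against those shares and not against 6. The difference in log2 ratio of PSMB9 to PSMB6 was -0.13 to 0.03 with each library left out (0.02 without DMSO 2, 0.03 without Tan I 3) and 0.10 without DMSO 2 and Tan I 3. That of PSMB10 to PSMB7 was -0.20 to 0.13 (0.13 without DMSO 2) and 0.11 without both. With each library left out, log2 fold changes of these members took both signs: PSMB3 -0.0020 to 0.49, PSMB8 -0.074 to 0.33, PSMB10 -0.062 to 0.49, PSMD4 -0.045 to 0.35, PSMD8 -0.052 to 0.27, PSMD10 -0.051 to 0.33, PSMG1 -0.071 to 0.41, PSMF1 -0.13 to 0.24 and PSMC3IP -0.053 to 0.15, each negative without Tan I 3, and PSMD5 -0.059 to 0.036. PSMB8, PSMB10, PSMG1 and PSMF1 were also negative, and PSMD5 positive, without DMSO 1. The sign also turned with the first principal component (PSMB8 -0.024, PSMB10 -0.038, PSMG1 -0.042, PSMF1 -0.064, PSMC3IP -0.0026, PSMD5 0.020), with the same total (PSMC3IP -0.00028) and without DMSO 2 and Tan I 3 (PSMF1 -0.0080, PSMC3IP -0.013). The cause was not tested. The same total moved the median of all genes to -0.06 and that of the members to 0.17, with 45 of 49 above 0. With 3 libraries a group, the 95% interval held 0 for every member but PSMC4. The lowest member had a mean of 257 normalized counts, and whether depth limited the calls was not tested.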
